A study of Mus musculus with 14 samples.

Results

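The response of dorsal root ganglia (DRG) to crush of the sciatic nerve was examined in the mouse strain CAST/Ei, from 3 naive and 3 injured libraries of mature microRNAs (miRNAs). These 6 libraries, of 14 in the series, were taken by strain and treatment as labelled. The other 8 are 5 naive and 3 injured libraries of the strain C57BL/6. Naive animals had no treatment, and per the labels' protocols the injured animals were males aged 8 to 10 weeks that had the sciatic nerve on the left side crushed during 30 s. The sources used here give no age or sex of the naive animals, no time from crush to dissection and no ganglion levels. CAST/Ei is an inbred strain derived from wild Mus musculus castaneus, and C57BL/6 is the common laboratory strain. The comparison asks which miRNAs differ in level between injured and naive CAST/Ei ganglia. A miRNA was tested if it had at least 5 CPM (read counts scaled to a common library size) in at least 3 of the 6 libraries, which held for 587 of the 1123 miRNAs listed. These 587 carried 99.9% of the reads.

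DRG hold the cell bodies of the sensory neurons whose axons run in peripheral nerves, together with satellite glia, Schwann cells, vessels and resident macrophages. Crush cuts the axons but leaves the nerve sheath in place, and the neurons can switch to a growth state while immune cells gather in the ganglion. A miRNA is cut from a hairpin precursor with a 5p and a 3p arm, and the mature strand guides silencing of mRNAs that pair with its seed, bases 2 to 8. The RNA was of dissociated DRG, per the labels' protocols, and the part of dissociation in the levels was not tested. In a bulk sample such as this, fewer cells of a type and less RNA per cell cannot be told apart.

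The CAST/Ei naive libraries held 15642360, 8731243 and 6653095 reads, and the injured libraries 9945200, 5401274 and 13629728. In each of the 6 libraries 986 to 1074 miRNAs were detected. A floor of 3 reads over a whole group was 0.105 CPM for the naive and 0.0937 CPM for the injured group, and covers counting error only. Spearman correlations among the 6 libraries were at least 0.942. The scaled values summed to 970957 to 1143936 CPM in the naive and 867581 to 918325 CPM in the injured libraries, so the groups did not overlap in this total (exact permutation p = 0.1, two-sided, the smallest that 3 against 3 allows). Naive library 3 held miR-124-3p, the main neuronal miRNA, at 4736 CPM and the hypoxia miRNA miR-210-3p at 40.8 CPM, against at least 15061 and 236 CPM in the other 5. Sensory neuron identity was visible in miR-183-5p, miR-182-5p and miR-96-5p, the cluster that marks sensory cells, with naive means of 10009, 9095 and 3737 CPM.

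Of the 17 miRNAs past the threshold, 14 had a mature sequence in the RefSeq table (GRCm38.p6). They are printed 5′ to 3′ with the seed in capitals, since the seed largely decides which transcripts a miRNA can pair with. Those that rose were
miR-21a-5p: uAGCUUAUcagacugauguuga
miR-21a-3p: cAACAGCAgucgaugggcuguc
miR-6540-3p: uCUGAAGCuugcuuaccucca
miR-7689-3p: uUAGAGCCagacugccuggguuu
miR-431-5p: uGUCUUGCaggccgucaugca
miR-1197-3p: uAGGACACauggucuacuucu
miR-511-3p: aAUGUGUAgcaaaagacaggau
miR-5114: aCUGGAGAcggaagcugcaaga

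Those that fell were
miR-200b-3p: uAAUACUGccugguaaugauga
miR-429-3p: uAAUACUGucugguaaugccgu
miR-551b-3p: gCGACCCAuacuugguuucag
miR-34a-3p: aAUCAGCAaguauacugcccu
miR-547-3p: cUUGGUACaucuuugagugag
miR-344b-3p: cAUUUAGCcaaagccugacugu

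The 14 sequences carry 13 distinct seeds. The 1 seed held by more than 1 of them is that of miR-200b-3p and miR-429-3p, which both fell. miR-6540-5p, miR-147-3p and miR-142-3p were also past the threshold.

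Injured ganglia held 11 miRNAs at higher and 6 at lower levels, by limma-trend on log2(CPM + 1) with Benjamini-Hochberg adjustment over the 587 and a threshold of 0.05. This is 2.9% of the miRNAs tested, 1.87% higher and 1.02% lower. When each library was instead rescaled to plain CPM, so that all libraries have the same total, 17 (2.9%) were higher and 0 lower. That scaling moved the median of all miRNAs by 0.26 on the log2 scale, from −0.10 to 0.16. The 11 increases all passed under that scaling, and the 6 decreases did not (adjusted p between 0.0577 and 0.104), though their direction was the same. Rescaling without the 3 most abundant miRNAs gave 15 higher (2.56%) and 0 lower. At an unadjusted p under 0.05 there were 112 miRNAs (19.1%), 44 higher and 68 lower. The 3 injured libraries lay above the 3 naive ones for 59 miRNAs (10.1%) and below them for 99 (16.9%), and all 17 called miRNAs were among these. Of the 587, 5 passed the level filter through the injured libraries alone, which holds for miR-21a-3p and miR-5114, and 2 through the naive libraries alone.

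**Figure D1:**
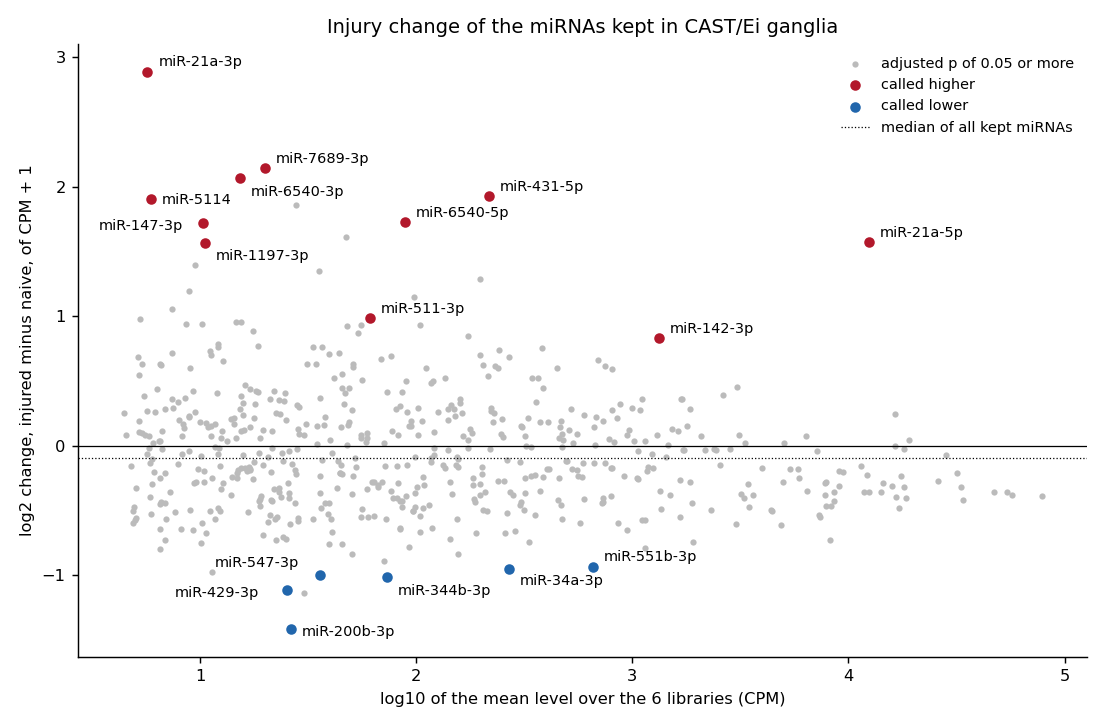
Each point is 1 of the 587 miRNAs tested, with log10 of its mean CPM over the 6 libraries on the x axis and its log2 change (injured minus naive, of CPM + 1) on the y axis; red points were called higher, blue points lower, and the dotted line marks the median of −0.10. Increases reach 2.89 and decreases reach −1.42, and miR-21a-5p stands apart from the other called miRNAs by its level.

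Both arms of miR-21a rose. This miRNA is induced in many damaged tissues, and its hairpin lies on chromosome 11 (GRCm38 chr11:86584067-86584158, minus strand) within the annotated UTR of Vmp1, on the same strand. miR-21a-5p stood at 7542, 4989 and 6439 CPM in naive libraries 1 to 3 and at 18524, 17664 and 19515 CPM in injured libraries 1 to 3. All 3 injured libraries lay far above the 3 naive ones. The means were 6323 ± 1280.4 CPM in the naive libraries (SD, n = 3) and 18567 ± 926 in the injured libraries (SD, n = 3), a 2.94-fold rise (log2 change 1.57, SE 0.18, limma adjusted p = 0.00293). Its share of all reads went from a mean of 0.581% in naive to 2.07% in injured libraries. miR-21a-3p, the scarce arm, stood at 0.869, 1.001 and 0 CPM in the naive and 9.50, 14.8 and 8.15 CPM in the injured libraries, from 21 naive and 317 injured reads in all. Its means differed 17.3-fold (log2 change 2.89, SE 0.39, limma adjusted p = 0.00553), and 1 naive library had no read of it. miR-21c, chosen after its values were seen because it has the seed of miR-21a-5p, had means of 4.46 and 14.6 CPM (log2 change 1.40, adjusted p = 0.152), and reads of these near-identical miRNAs may be divided uncertainly between them.

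miR-6540 lies within an intron of Gap43, on the same strand (GRCm38 chr16:42303362-42303469). Gap43 encodes a growth cone protein that is a standard marker of regenerating axons. The 5p arm of miR-6540 stood at 38.7, 38.7 and 44.5 CPM in naive and 139, 124 and 147 CPM in injured libraries. All 3 injured libraries were above all 3 naive ones, and the naive values were close to each other. The change was 3.36-fold in the means (log2 change 1.73, SE 0.19, limma adjusted p = 0.00293). The 3p arm, whose sequence is printed above, stood at 5.14, 4.56 and 6.02 CPM in naive and 31.6, 19.4 and 25.4 in injured libraries (log2 change 2.07, SE 0.27, limma adjusted p = 0.00553). Both arms therefore rose without overlap of the groups. miR-7689-3p lies opposite the strand of Sorcs2, a sorting receptor gene, in one of its introns (GRCm38 chr5:36301570-36301628). It stood at 4.63, 10.7 and 5.50 CPM in naive and 33.96, 40.0 and 24.7 CPM in injured libraries (log2 change 2.14, SE 0.34, limma adjusted p = 0.0126). Naive library 2 was the highest of its group and still below the lowest injured library.

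The Dlk1-Dio3 domain on chromosome 12 is an imprinted region whose maternal allele gives a long series of miRNAs, many of them expressed in neurons. miR-431-5p lies in it opposite a coding exon of the retrotransposon-derived gene Rtl1 (GRCm38 chr12:109590447-109590537). It stood at 123, 107 and 52.8 CPM in naive and 335, 339 and 345 CPM in injured libraries (log2 change 1.93, SE 0.30, limma adjusted p = 0.0126). The injured libraries were close to each other, and naive library 3 was the lowest of the 6. miR-1197-3p (GRCm38 chr12:109712317-109712436, in no annotated host gene) stood at 5.07, 5.23 and 4.13 CPM in naive and 15.5, 14.0 and 19.1 CPM in injured libraries (log2 change 1.56, SE 0.26, limma adjusted p = 0.0174). These were the 2 called among 87 tested members of 105 listed for the domain, beside 1.87% called higher over all 587, and none was called lower. Their median log2 change was 0.11, against −0.10 over all 587. The groups did not overlap for 30 members. Of these 23 were higher, as were 10.1% of all 587, and 7 lower, as were 16.9% of all 587. Along the chromosome, 15 of 20 miRNAs tested from the group of hairpins around Rtl1 (109563692 to 109595388) had a log2 change above 0, and 41 of 61 from the group around miR-379 and miR-410 (109709060 to 109747960), beside 253 of all 587. With libraries rescaled to plain CPM these counts were 17, 56 and 379. The most abundant members, miR-434-3p and miR-379-5p, had log2 changes of −0.61 (adjusted p = 0.226) and −0.03 (adjusted p = 0.925).

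miRNAs of blood and immune cells made up 3 of the increases. miR-142-3p, which is restricted to cells of the blood lineage (hairpin GRCm38 chr11:87756864-87756927, in an intron of the non-coding gene Mir142hg), stood at 830.4, 1052 and 989.7 CPM in naive and 1468, 1989 and 1667 CPM in injured libraries (log2 change 0.83, SE 0.18, limma adjusted p = 0.0494). miR-511-3p lies in an intron of Mrc1, the mannose receptor gene of macrophages (GRCm38 chr2:14261003-14261081), and stood at 39.2, 35.7 and 47.5 CPM in naive and 90.4, 71.5 and 82.5 CPM in injured libraries (log2 change 0.98, SE 0.21, limma adjusted p = 0.045). miR-147-3p is induced in activated macrophages and lies in a UTR of AA467197 (GRCm38 chr2:122640803-122640881). It stood at 5.29, 6.12 and 2.06 CPM in naive and 19.995, 13.0 and 15.6 CPM in injured libraries (log2 change 1.72, SE 0.37, limma adjusted p = 0.045). For all 3 the highest naive library was below the lowest injured one, as held for 10.1% of all 587. They are 3 of 10 tested members, of 16 listed, of the myeloid and lymphoid list, beside 1.87% called higher over all 587. This list was chosen with earlier results of these data known, so the count is a description. The median log2 change of the list was 0.71, or 0.98 when rescaled to plain CPM. No member of the list was called lower. miR-142-5p, the other arm, did not pass (log2 change 0.76, adjusted p = 0.0937), but did when rescaled to plain CPM (limma adjusted p = 0.0155). The neutrophil and macrophage miRNA miR-223-3p did not pass, at 2231, 1367 and 3493 CPM in naive and 2608, 3135 and 2915 CPM in injured libraries. The leukocyte miRNA miR-150-5p, chosen after its values were seen, was the 1 tested member with a log2 change below 0 (−0.24). It stood at 180, 82.0 and 96.6 CPM in naive and 123, 81.1 and 86.3 CPM in injured libraries. With libraries rescaled to plain CPM all 10 members were above 0. The list summed to 4716 to 7442 CPM in naive and 6937 to 8099 CPM in injured libraries, so the summed level overlapped. No listed member was at 0 in all 6 libraries. The part of a changed number of immune cells in these increases was not tested.

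miR-5114 was also called higher, at 1.38, 1.11 and 3.61 CPM in naive and 11.7, 8.35 and 9.30 CPM in injured libraries (log2 change 1.91, SE 0.37, limma adjusted p = 0.0383). Its hairpin overlaps a coding exon of Scd2, a fatty acid desaturase gene, on the same strand (GRCm38 chr19:44303171-44303231). The call rests on 50 naive and 318 injured reads. miR-5114 met the level filter through the injured libraries alone, where it is high, so its passing is weaker support. It missed in 7 of the 20 alternatives that tested it.

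Of the 6 miRNAs that fell, 2 come from 1 hairpin group on chromosome 4 (GRCm38 chr4:156053905-156055750, minus strand, in an intron of Ttll10). The miR-200 family holds cells in an epithelial state and also occurs in some neurons. miR-200b-3p stood at 42.5, 43.7 and 29.9 CPM in naive and 14.2, 10.3 and 17.4 CPM in injured libraries (log2 change −1.42, SE 0.27, limma adjusted p = 0.0383), 2.77-fold lower in the means. miR-429-3p stood at 37.7, 29.8 and 37.1 CPM in naive and 15.3, 14.8 and 16.3 CPM in injured libraries (log2 change −1.12, SE 0.22, limma adjusted p = 0.0385). The third member of the group, miR-200a-3p, has a seed that differs from theirs, as printed here:
miR-200a-3p: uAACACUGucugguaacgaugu

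It stood at 53.6, 35.1 and 37.1 CPM in naive and 18.9, 14.3 and 22.1 CPM in injured libraries and did not pass (log2 change −1.14, SE 0.26, limma adjusted p = 0.0614). The groups did not overlap for any of these 3, and 16.9% of all 587 lay lower without overlap. miR-200c-3p has the seed of miR-200b-3p but lies elsewhere, and stood at 2.75, 3.89 and 5.50 CPM in naive and 5.93, 8.67 and 5.59 CPM in injured libraries (log2 change 0.63, adjusted p = 0.327). Over the epithelial list, 2 of 7 tested members of 9 listed were lower and 0 higher, beside 1.02% lower over all 587. Its median log2 change was −0.19, which became 0.05 when libraries were rescaled to plain CPM. The list summed to 274 to 387 CPM in naive and 274 to 341 CPM in injured libraries. Its defining markers miR-205-5p and miR-200c-3p were above 0 in every library, with naive means of 6.23 and 4.05 CPM. The part of epithelial cells in the decreases was not tested.

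The other 4 decreases were of unrelated seeds. miR-551b-3p, from an intron of Egfem1 (GRCm38 chr3:29416823-29416920), stood at 999, 809 and 776 CPM in naive and 552, 392 and 412 CPM in injured libraries (log2 change −0.94, SE 0.20, limma adjusted p = 0.045). miR-34a-3p is the minor arm of a hairpin that is a target of p53 (GRCm38 chr4:150068454-150068555), and stood at 355, 281 and 428 CPM in naive and 178, 172 and 191 CPM in injured libraries (log2 change −0.95, SE 0.20, limma adjusted p = 0.045). Its major arm miR-34a-5p, at a naive mean of 17901 CPM, did not pass (log2 change −0.31, adjusted p = 0.489). For each of the 4 decreases the groups did not overlap, and 16.9% of all 587 lay lower without overlap. miR-547-3p is X-linked (GRCm38 chrX:67988374-67988451) and stood at 43.8, 46.3 and 54.0 CPM in naive and 26.4, 21.2 and 23.1 CPM in injured libraries (log2 change −0.997, SE 0.21, limma adjusted p = 0.045). The 2 arms of its neighbour miR-201 were both below 0 in log2 change and did not pass.

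miR-344b-3p, from an intron of the non-coding gene A230057D06Rik (GRCm38 chr7:61790519-61790581), stood at 104, 84.0 and 107 CPM in naive and 51.3, 43.2 and 49.1 CPM in injured libraries (log2 change −1.02, SE 0.20, limma adjusted p = 0.0385). The related miR-344d-3p, from 3 hairpins on the same strand of chromosome 7, stood at 60.8, 58.3 and 57.1 CPM in naive and 177, 90.9 and 139.7 CPM in injured libraries, higher in every injured library but not past the threshold (log2 change 1.15, SE 0.26, limma adjusted p = 0.0537). Which of the 2 is called depended on the setting. miR-344d-3p passed when rescaled to plain CPM (limma adjusted p = 0.0254) and with edgeR (adjusted p = 0.045). miR-344b-3p did not pass in either (adjusted p = 0.061 and 0.0504), and DESeq2 called both. The mature sequence of miR-344d-3p is set here under that of miR-344b-3p, since the 2 differ in their seeds. Of 5 tested members of the miR-344 group (11 listed) 1 was called lower, as were 1.02% of all 587, and 0 higher, with a median log2 change of 0.68:
miR-344b-3p: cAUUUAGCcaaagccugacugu
miR-344d-3p: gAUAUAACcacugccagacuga

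**Figure D2:**
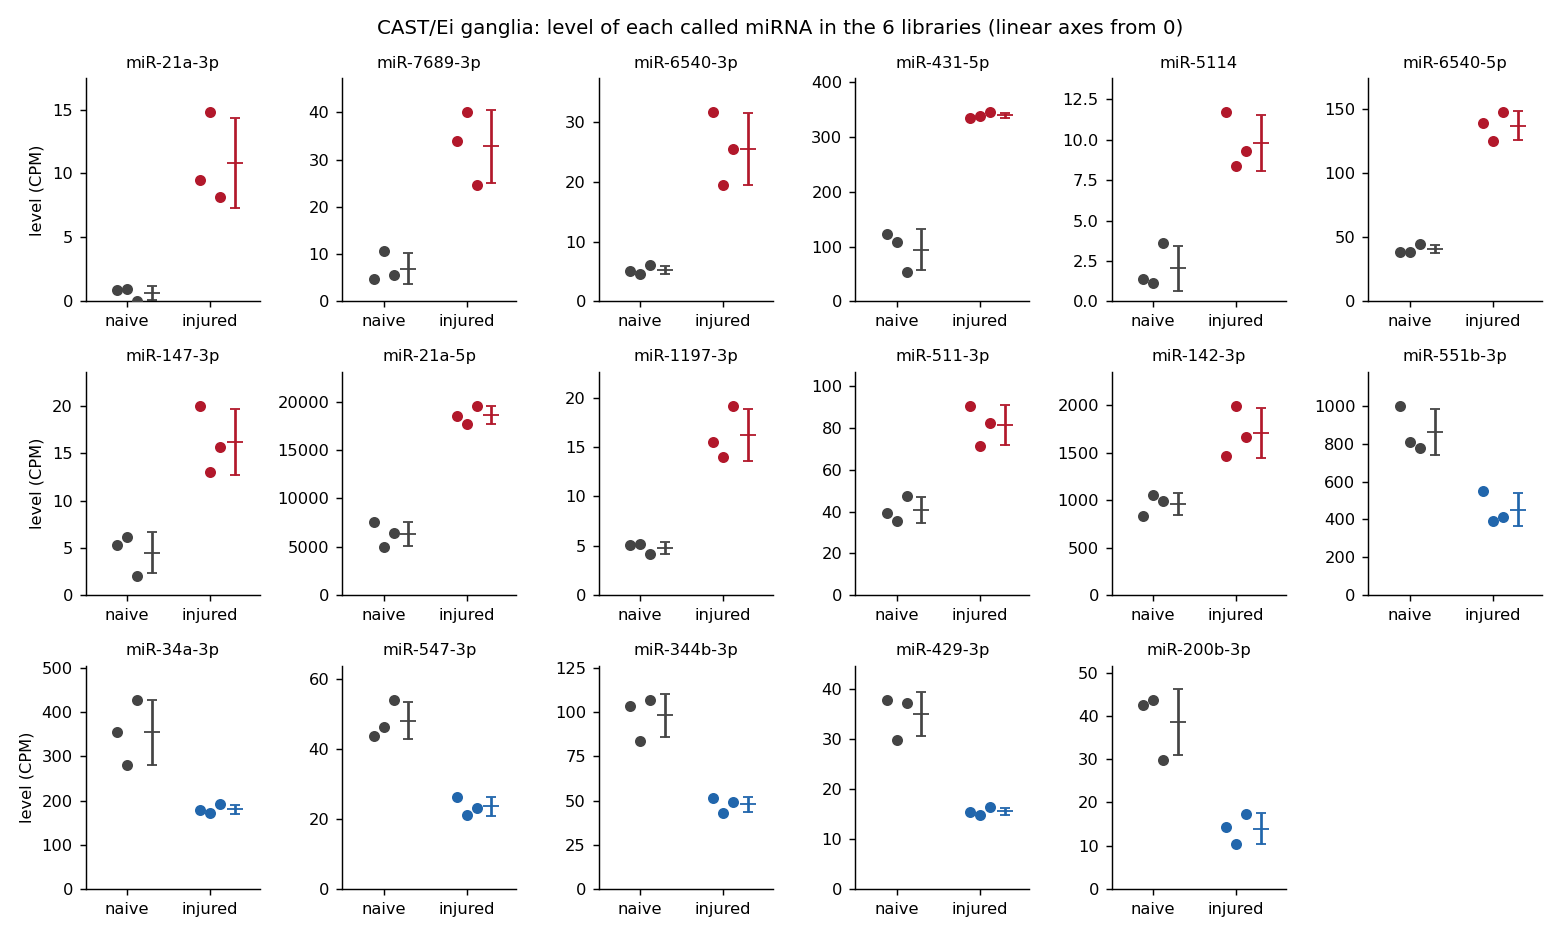
Level in CPM of each of the 17 called miRNAs, on linear axes from 0, with 1 point for each library (grey naive, red injured and higher, blue injured and lower) and the mean with SD (n = 3) beside the points. In all 17 panels the naive and injured points do not overlap.

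The most abundant miRNAs of the ganglion did not pass. miR-138-5p, a neuronal miRNA that restrains axon growth, was the most abundant, at 90102, 83337 and 93328 CPM in naive and 69789, 65011 and 68299 CPM in injured libraries. The groups did not overlap, but the change did not pass (log2 change −0.39, adjusted p = 0.157), and it took 8.23% of naive and 7.54% of injured reads in the mean. None of the 10 most abundant miRNAs passed, with log2 changes from −0.42 for miR-26a-5p to 0.04 for miR-16-5p. Of 28 tested neuronal miRNAs (38 listed) none was called, and their median log2 change was −0.26, which became 0.00 when libraries were rescaled to plain CPM. miR-9-5p, of neural progenitors and neurons, had the lowest p among those that were lower, at 7974, 10026 and 8514 CPM in naive and 5865, 5851 and 6269.7 CPM in injured libraries (adjusted p = 0.101). All 6 tested arms of the miR-183 cluster were below 0, with a median of −0.36, and none passed. With libraries rescaled to plain CPM, 4 of the 6 were below 0 and the median was −0.09. The injury list, like every list here, was chosen with earlier results of these data known, so its counts are a description. Of 15 members reported to rise, 5 were called higher, beside 1.87% of all 587, and the median was 0.62. Of 15 reported to fall, 0 were called, beside 1.02% of all 587 called lower. Their median was −0.36, or −0.09 when rescaled to plain CPM. The 5 were both arms of miR-21a, miR-431-5p, miR-142-3p and miR-511-3p. miR-221-3p and miR-222-3p, which are raised in growing neurons, had log2 changes of 0.59 (adjusted p = 0.197) and 0.18 (adjusted p = 0.632). The activity-regulated miR-132-3p and miR-212-3p had changes of 0.41 and 0.60 (adjusted p = 0.309 and 0.177), and miR-212-3p passed when rescaled to plain CPM (limma adjusted p = 0.0447). Both arms of the hypoxia miRNA miR-210 were without a call, with a median of 0.38 that became −0.10 without naive library 3.

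Among lists for other cells of the ganglion and its surroundings, none of 11 Schwann cell and myelin miRNAs was called (median −0.32), with miR-338-3p, the glial miRNA that promotes myelination, at 35523, 34794 and 39788 CPM in naive and 28769, 30280.3 and 29186 CPM in injured libraries (adjusted p = 0.243). That list also holds the arms of miR-138 and miR-30a, which are on the neuronal and miR-30 lists too, so its median is not separate from theirs. None of 8 skeletal muscle miRNAs was called (median −0.57), although 5 lay lower without overlap, as did 16.9% of all 587. The muscle list summed to 10153 to 12854 CPM in naive and 7180 to 8300 CPM in injured libraries, so the sum was lower in all 3 injured libraries, and the part of attached muscle tissue was not tested. The muscle miRNA miR-1b-5p came nearest to the threshold, at 1282, 1064 and 1110.0 CPM in naive and 734, 764 and 694 CPM in injured libraries (adjusted p = 0.0851). No member was called on the lists of erythrocyte (9 tested, median −0.39), endothelial (4, −0.31), mural cell (5, −0.16), fibroblast (6, −0.25) and hepatocyte (3, −0.49) miRNAs. When libraries were rescaled to plain CPM, the medians were −0.05 for Schwann cell and myelin, −0.31 for muscle, −0.12 for erythrocyte, −0.05 for endothelial and −0.23 for hepatocyte miRNAs, and the mural cell and fibroblast medians turned to 0.11 and 0.02. The erythrocyte miRNA miR-451a stood at 7971, 9977 and 11661 CPM in naive and 6421, 8140.3 and 7259 CPM in injured libraries, and these overlapped.

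Among broader families, 1 member was called, miR-34a-3p. All 7 tested miR-29 arms and all 11 tested miR-30 arms had log2 changes below 0 (medians −0.36 and −0.38), and none passed. With libraries rescaled to plain CPM, 5 of the 7 and 8 of the 11 were below 0, with medians of −0.09 and −0.11. The let-7 family had 20 tested members, no call and a median of −0.15, which became 0.12 when libraries were rescaled to plain CPM and 0.0029 without naive library 1. The 18 tested members of the growth-promoting miR-17 clusters had a median of 0.12, or 0.38 when rescaled to plain CPM. The 41 tested members of the families of the Sfmbt2 intron cluster, a rodent array of repeated miRNAs, had a median of 0.18, which became −0.22 without naive library 3. They were listed by name, and miR-466i-5p lies on chromosome 13. By position, 10 miRNAs from chr2:10466663-10481320 had a median of −0.11, and 16 from chr2:10505721-10514971 had 0.06. The 8 tested Hox cluster miRNAs had a median of −0.38, or −0.12 when rescaled to plain CPM. The miR-34 and miR-449 family had a median of 0.38 over 8 members, with miR-34c-5p at 78.4, 51.5 and 46.4 CPM in naive and 111, 84.6 and 86.1 CPM in injured libraries (adjusted p = 0.191). After miR-200a-3p and miR-1b-5p, described above, miR-582-5p and miR-322-5p came next in p among the decreases. Their log2 changes were −0.67 and −0.58 (limma adjusted p = 0.0851 and 0.0937).

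**Figure D3:**
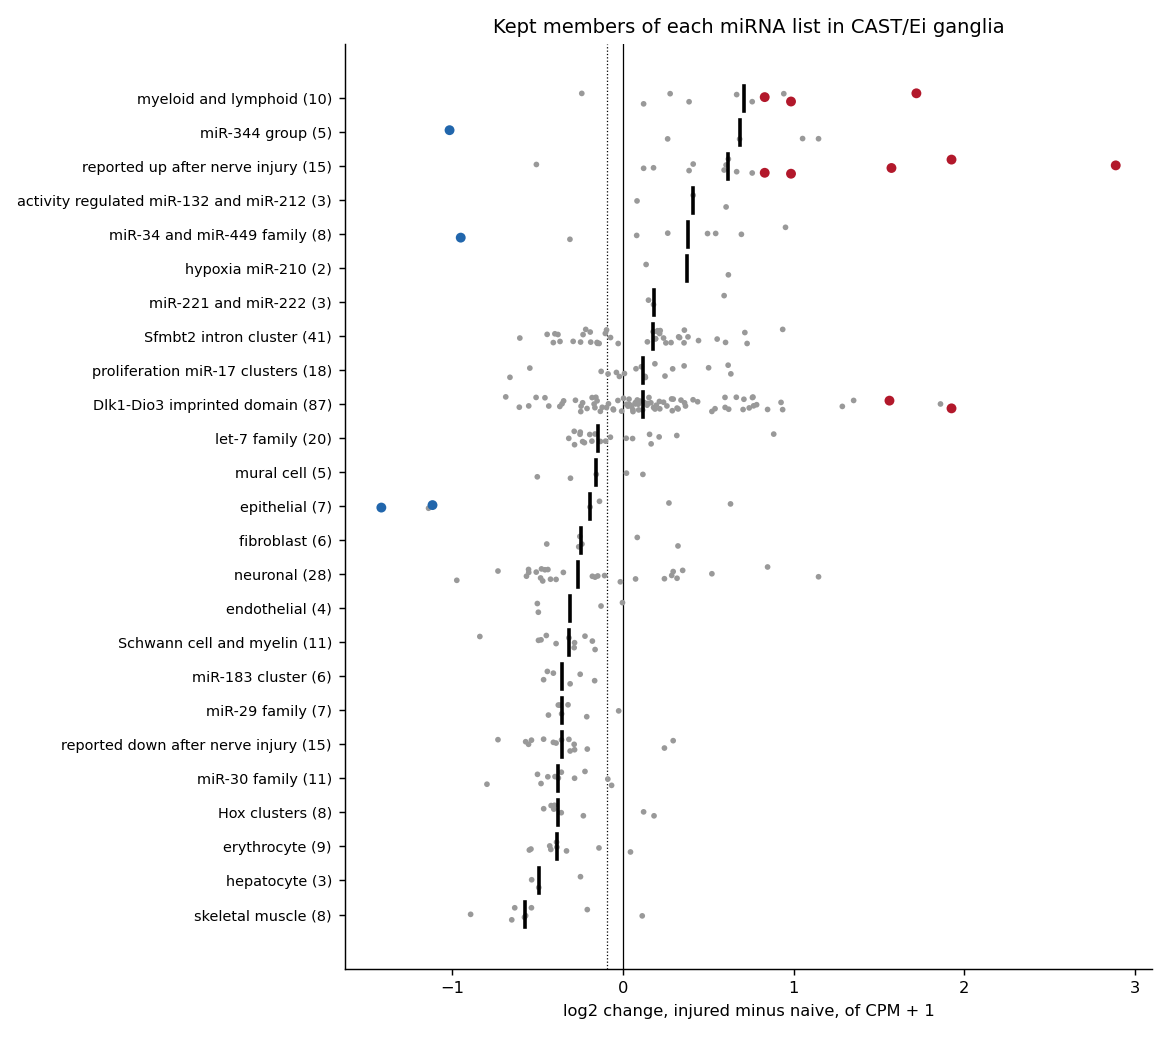
Log2 change (injured minus naive, of CPM + 1) of the tested members of each of 25 miRNA lists, with the number tested in parentheses, the list median as a black bar, called members in red (higher) or blue (lower), and the median of all 587 as a dotted line. The myeloid and lymphoid list has the highest median (0.71) and the skeletal muscle list the lowest (−0.57).

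Whether the 2 arms of a hairpin changed together was examined over 180 hairpins with a mean of at least 5 CPM for both arms. None passed for a change in the 5p to 3p balance by limma, and 8 (4.44%) had an unadjusted p under 0.05. The lowest p belonged to miR-431, whose 5p arm rose by 1.93 and whose 3p arm had a log2 change of 0.71, a balance shift of 1.22 ± 0.23 (SE, adjusted p = 0.105). It passed with a pseudocount of 5 (adjusted p = 0.036) and with both arms at a mean of 20 CPM or more (adjusted p = 0.0262). miR-21a shifted by −1.31 ± 0.38 and miR-154 by −0.88 ± 0.24 (adjusted p = 0.493 for each). The balance of miR-21a turned with the pseudocount, from −1.87 at 0.5 (adjusted p = 0.352) to 0.10 at 5 (adjusted p = 0.946), so no direction is given for it. That of miR-154 was −0.87 at a pseudocount of 5. Without naive library 2, miR-494, chosen after its values were seen, was the 1 hairpin that passed, with a shift of −2.25 (adjusted p = 0.0388). Across the 179 hairpins with both arms tested, the log2 changes of the arms correlated with Pearson's r of 0.614 and Spearman's rho of 0.514, as a description across hairpins from the same 6 libraries. The arms had the same sign in 124 (69.3%).

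The calls depended on single libraries. 4 of the 17, both arms of miR-21a and both arms of miR-6540, passed in every alternative that tested them, 20 for the scarce miR-21a-3p and miR-6540-3p and 21 for the others. The filter of a mean of 20 CPM left the 2 scarce arms untested. miR-21a-3p met the main filter through the injured libraries alone, where it is high, so its passing is weaker support. The same holds for the call of miR-5114. Without injured library 1, 4 miRNAs were called, and without injured library 2, injured library 3 or naive library 1, 5 were called, all higher. Each of these fits has fewer libraries. Without naive library 3, which stood apart in miR-124-3p and miR-210-3p, 27 were called, 12 higher and 15 lower, and these included all 17. miR-431-5p and miR-7689-3p missed in 3 of the 6 fits that left out a library (highest adjusted p 0.0776 and 0.0761). Each of the other 5 increases and of the 6 decreases missed in 4 or 5 of these fits, with a highest adjusted p between 0.160 for miR-200b-3p and 0.329 for miR-142-3p. None of the 17 changed sign in any alternative. With edgeR on the recovered whole reads, all 11 increases passed and 2 of the 6 decreases, miR-200b-3p and miR-429-3p (adjusted p = 0.045 for each), among 12 higher (2.04%) and 2 lower (0.341%) in all. DESeq2 called 32 higher (5.45%) and 11 lower (1.87%), with all 17 among them.

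**Figure D4:**
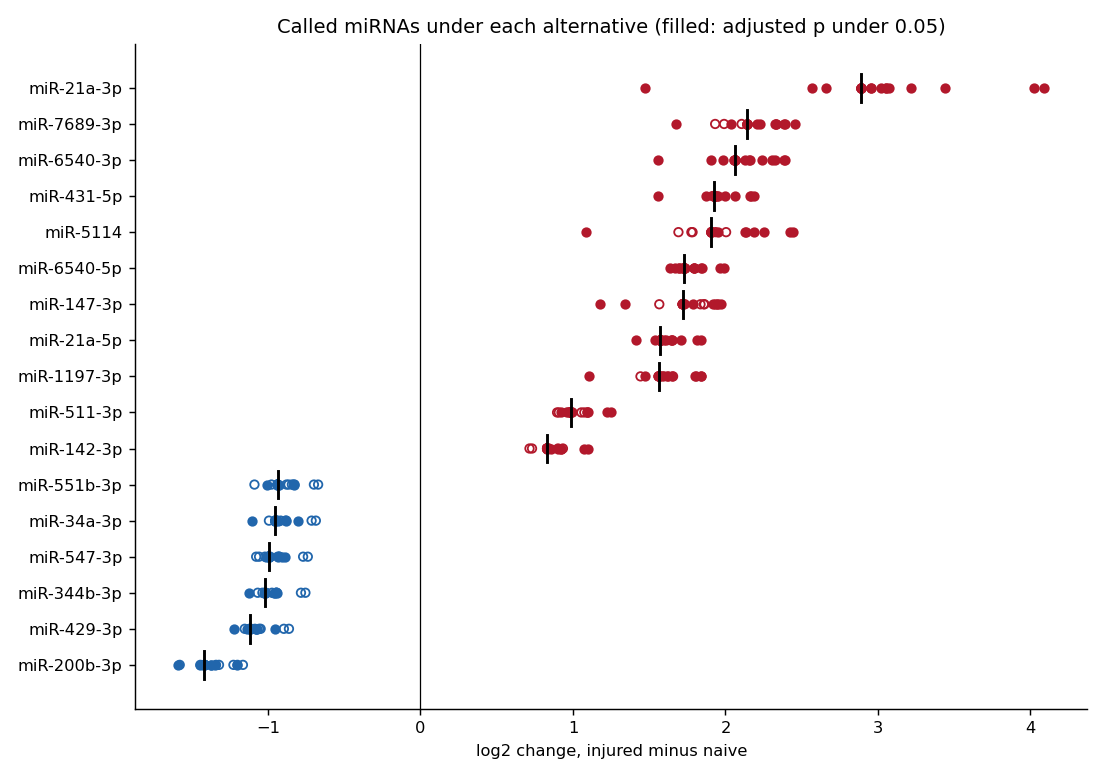
Log2 change of each called miRNA (rows) under each alternative that tested it, filled where the adjusted p was under 0.05 and open where it was not, with the main value as a black bar. No point crosses 0, the 2 arms of miR-21a and of miR-6540 have filled points throughout, and the 6 decreases each have open points.

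The same injury was compared in C57BL/6 to see where CAST/Ei differs. C57BL/6 naive libraries 4 and 5 stand apart, with 56.6% and 50.1% of their reads in their 10 most abundant miRNAs, so values are given with and without them where a miRNA is described. Of the 17, 16 had the same sign in both strains, and 15 without the 2 libraries. The 17 were chosen on their CAST/Ei values and the same share over all tested miRNAs is not given, so these counts are a description. 6 of the 11 increases also passed in C57BL/6 (where 2.35% of 638 miRNAs were higher and 0.784% lower) and 0 of the 6 decreases. The C57BL/6 changes are from the fit over all 14 libraries, while the CAST/Ei calls use the spread of 6. With the spread of all 14 libraries, 7 of the 11 increases and 0 of the 6 decreases passed in CAST/Ei itself. Without the 2 libraries 7 of the 11 increases passed in C57BL/6, the added 1 being miR-1197-3p. Of the 6 decreases 1 passed there, miR-551b-3p, at a C57BL/6 change of −0.97 (limma adjusted p = 0.0127). In that fit 3.61% of all were higher in C57BL/6 and 0.94% lower. With the spread of those 12 libraries, 9 of the 11 increases and 5 of the 6 decreases passed in CAST/Ei. None of the 638 miRNAs tested over all 14 libraries passed for a difference between the strains' injury changes by limma. The count at an unadjusted p under 0.05 was 52 (8.15%), and 58 without the 2 libraries, where again none passed. edgeR gave 0 and DESeq2 gave 8, all with the more positive change in CAST/Ei. miR-21a-5p changed by 1.57 in CAST/Ei and by 1.76 in C57BL/6, a difference of −0.19 (95% interval −1.10 to 0.73). Without the 2 libraries its C57BL/6 change was 1.603 and the difference −0.03 (−0.62 to 0.56). miR-6540-5p differed by −0.01 (−0.79 to 0.76) with them and 0.12 (−0.50 to 0.74) without, and miR-431-5p by 0.24 (−0.63 to 1.10) and 0.16 (−0.67 to 0.995). With all libraries these intervals leave room for differences of up to 1.10 on the log2 scale.

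The lowest p for a strain difference belonged to miR-5114, with a difference of 2.04 (0.92 to 3.16, adjusted p = 0.529). It had 3.56, 2.27, 4.81, 6.89 and 2.63 CPM in C57BL/6 naive libraries 1 to 5 and 2.69, 4.72 and 2.91 CPM in the injured ones. Without naive libraries 4 and 5 its difference was 1.93 (0.85 to 3.01, adjusted p = 0.376). The other 4 of lowest p were miR-709, miR-1195, miR-3102-5p.2-5p and miR-379-5p, the last with a difference of −1.24 (−2.10 to −0.39, adjusted p = 0.529), and −0.92 (−1.41 to −0.42) without the 2 libraries. miR-547-3p, with a naive mean of 48.0 CPM in CAST/Ei and 7.24 CPM in C57BL/6, changed by −0.997 and −0.01, a difference of −0.99 (−1.999 to 0.02). Without the 2 libraries its C57BL/6 change was −0.30 and the difference −0.70 (−1.45 to 0.05). miR-21a-3p changed by 2.89 and 1.41, a difference of 1.48 (0.28 to 2.68). Without the 2 libraries these were 1.25 in C57BL/6 and a difference of 1.64 (0.39 to 2.88). miR-200b-3p stood at 372 and 58.1 CPM in C57BL/6 naive libraries 4 and 5 and between 4.31 and 10.7 CPM in the other 3. Its C57BL/6 change was −1.19 with these libraries and 0.54 without them, and the strain difference −0.22 (−3.49 to 3.04) and −1.96 (−3.16 to −0.76). For miR-429-3p the C57BL/6 change was −0.98 and −0.12, and the difference −0.13 (−2.08 to 1.82) and −0.995 (−1.77 to −0.22). None of these differences passed after adjustment, with or without the 2 libraries.

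**Figure D5:**
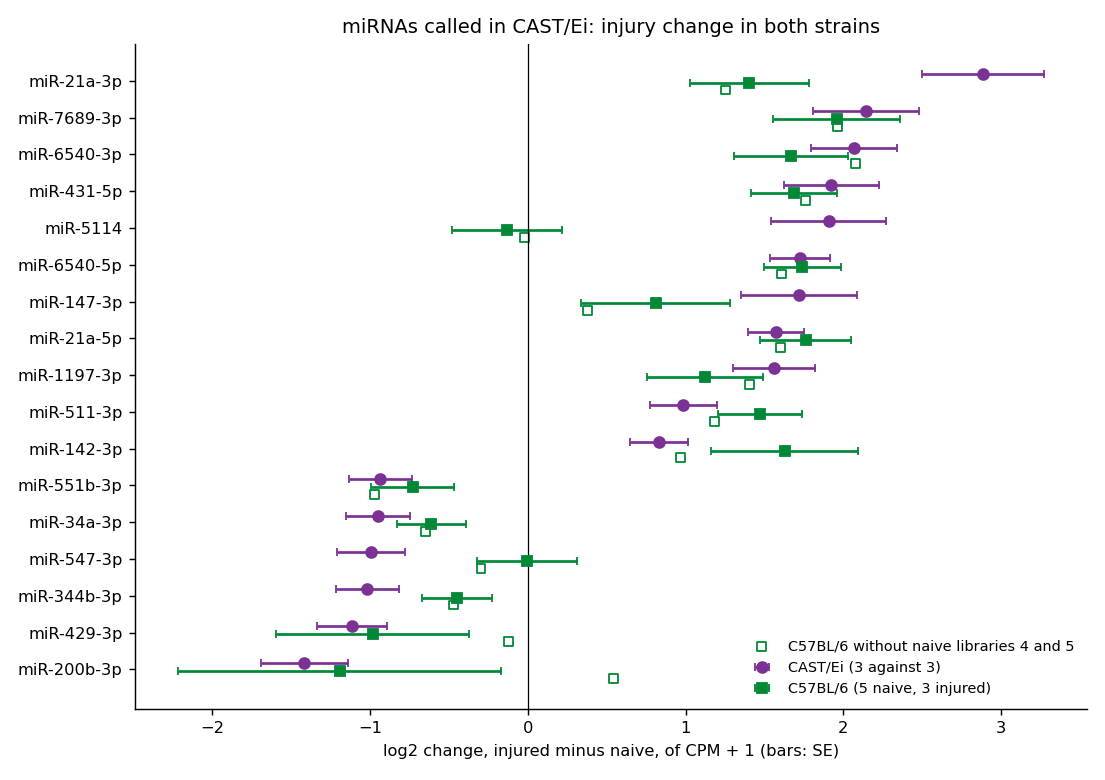
Log2 change after injury (injured minus naive, of CPM + 1, bars SE) of the 17 miRNAs called in CAST/Ei, in CAST/Ei (purple circles), in C57BL/6 (filled green squares) and in C57BL/6 without naive libraries 4 and 5 (open squares). The SE of CAST/Ei is from the fit of its 6 libraries and that of C57BL/6 from the fit over 14 libraries. With all libraries miR-5114 is the 1 miRNA whose C57BL/6 change (−0.13) has the opposite sign to CAST/Ei, and miR-200b-3p changes sign in C57BL/6 without the 2 libraries.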

How the data were processed

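Small RNA of dissociated DRG was extracted with the miRVana kit and made into libraries with the Ion Total RNA-Seq kit, per the labels' protocols. Alignment used Bowtie2, per the submitters' processing notes, and the sources used here name neither its version nor the genome build. The authors deposited 1 signal value per mature miRNA and library, called CPM in the file names. In all 6 CAST/Ei libraries 100% of values tested were whole multiples of 1 read (tolerance 0.001 reads, values up to 1000 reads), and TMM factors computed from the recovered reads match 1 over the scaled totals (in units of the common total) with differences of at most 9.08e-06, so the values are CPM on TMM-scaled library sizes. The plan had assumed plain CPM, and its test was kept.

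Values were tested as log2(CPM + 1) with limma-trend (R 4.3.3, limma 3.58.1) on the 6 libraries, after a filter of 5 CPM in at least 3, with Benjamini-Hochberg adjustment, two-sided, threshold 0.05. This log2 change understates the change of scarce miRNAs. The strain difference is the interaction in a fit over 14 libraries, which also gave the C57BL/6 change and its SE. Alternatives were edgeR 4.0.16 and DESeq2 1.42.0 on the recovered reads, other pseudocounts, filters, scalings and spreads, each library left out, and a replicate block. Scripts were tested on simulated data.

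Named miRNAs are those past the threshold with their other arms, the next lowest p in a direction with fewer than 10 calls, the 10 most abundant, up to 4 of each list, and the 3 hairpins and 5 strain differences of lowest p. Others are marked as chosen after their values were seen. The members and lists were chosen with earlier results of these data known. The series' design text calls the libraries biological replicates, without saying how animals were pooled. Mature sequences are from RefSeq (GRCm38.p6, 918 of 1123 names matched), and host genes from GENCODE M21 (GRCm38).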

Additional observations from a re-analysis of the deposited data

How the results depend on the processing

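The count of 17 called miRNAs was 7 with no filter, 9 with a filter of 1 CPM, 3 with a mean of at least 20 CPM, 11 with upper quartile scaling, 43 with DESeq2 (32 higher, 11 lower) and 7 with the spread of all 14 libraries. Same-numbered naive and injured libraries share only a number (correlation of their deviations 0.177, 0.028 and −0.044, and not every library correlated best with its own number). With the replicate block the count was 6, all higher, and the block gave 0 strain differences and 0 arm balance changes. Leaving out 1 library at a time gave 4 to 27 calls, 0 strain differences throughout, and 0 to 1 arm balance changes. Counts of 14 to 17 came from the remaining settings, with 15 higher and 0 lower when libraries were rescaled without their 3 most abundant miRNAs. The strain difference gave 8 calls with DESeq2 and 0 in the other settings, including edgeR without C57BL/6 injured library 1, a setting chosen after seeing the data. The arm balance gave 1 call each with a pseudocount of 5 and with both arms at 20 CPM. The cause of these shifts was not tested. None of the 17 changed sign in any setting. Of results without a call, the miR-21a arm balance turned with a pseudocount of 5 (0.10), as did the median of all 587 under plain CPM (0.16). List medians turned under plain CPM (neuronal 0.00, mural cell 0.11, fibroblast 0.02, epithelial 0.05, let-7 0.12) and without naive library 1 (let-7 0.0029). Those of the Sfmbt2 cluster families (−0.22) and miR-210 (−0.10) turned without naive library 3. Single miRNAs without a call, such as miR-379-5p under plain CPM (0.24), turned as well. Depth limits the scarce miRNAs, since miR-21a-3p and miR-5114 rest on 21 and 50 naive reads.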
